A study of Mus musculus with 8 samples.

Results

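The synaptonemal complex and HORMAD genes examined here were Sycp1, Sycp2, Sycp3, Syce1, Syce2, Syce3, Tex12, Hormad1 and Hormad2. The rule that picks them uses gene names and no measured value, but they were chosen with earlier results of these data known. Each of the 9 was listed at 1 locus in both tables, out of 23694 named genes in the female table and 23409 in the male table. RNA-Seq had been performed on E15.5 germ cells sorted by the Oct4-EGFP transgene, in which the Oct4 promoter drives a fluorescent protein, with 2 libraries for the controls and 2 for Snf5 CKO embryos of each sex. Snf5 (Smarcb1) codes for 1 of the core proteins of SWI/SNF, a complex that remodels chromatin. Snf5 CKO germ cells carried a floxed and a deleted Snf5 allele (fx/Δ) together with TNAP-Cre, in which Cre sits in the Alpl gene and recombines during the germ cells' time in the gonad. Control germ cells were a mixture of Snf5 fx/+, Snf5 fx/Δ and Snf5 fx/+ with TNAP-Cre, so that some controls carried the deleted allele or the Cre as well. All groups carried Oct4-EGFP, and some Snf5 CKO germ cells kept the SNF5 protein. The female libraries and the male controls pooled several embryos, whereas the study lists entries of 1 mouse each for the male Snf5 CKO libraries. The strain is labelled C57BL/6, while the methods of the study describe a mixed background.

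The synaptonemal complex is the protein ladder that joins homologous chromosomes in meiotic prophase. SYCP2 and SYCP3 form the axial elements along each chromosome, SYCP1 spans the gap between the axes, and SYCE1, SYCE2, SYCE3 and TEX12 build the central element in its middle. HORMAD1 and HORMAD2 bind chromosome axes that have not yet synapsed, and HORMAD1 promotes the formation of DNA breaks. In the fetal ovary germ cells enter meiotic prophase at about this stage, whereas germ cells of the fetal testis stop dividing and begin meiosis only after birth.

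The targeted gene was checked first. Smarcb1 was at 23.4 and 22.3 FPKM (fragments per kilobase of transcript, scaled for library size) in the female controls and at 4.24 and 2.47 FPKM in the female Snf5 CKO libraries. In males it was at 141 and 167 FPKM in controls and at 8.73 and 10.1 FPKM in Snf5 CKO libraries, so all 4 Snf5 CKO libraries were low as labelled. The summed FPKM of 5 germ cell markers (Ddx4, Dazl, Mael, Dppa3, Pou5f1) was 1853 and 1892 in female controls and 2784 and 2939 in female Snf5 CKO libraries. In male libraries the sum of these 5 markers lay between 4301 and 4801. Of these, Mael fell in Snf5 CKO germ cells of both sexes and Dppa3 and Pou5f1 rose in females. Pou5f1, whose promoter drives the reporter used for the sort, was at 8.63 and 16.7 FPKM in female controls and at 295 and 333 FPKM in female Snf5 CKO libraries, and its part in which cells were sorted was not tested. Markers of gonadal somatic cells were also detected and moved with the genotype. The summed FPKM of 6 Sertoli cell markers rose from 163 and 119 in male controls to 646 and 874 in male Snf5 CKO libraries, with 6 of 6 markers passing the test in that direction, and that of 5 Leydig cell markers was 85.7 and 58.2 in male controls against 19.2 and 15.1 in male Snf5 CKO libraries. In females the Sertoli list summed to 3.38 and 6.10 FPKM in controls and to 16.6 and 16.8 FPKM in Snf5 CKO libraries, with Dhh and Cst9 listed at 0 in both controls. The 6 pre-granulosa markers summed to 6.01 and 8.84 in female controls against 24.6 and 23.3 in female Snf5 CKO libraries. Leydig markers in females summed to 4.74 and 4.89 FPKM in controls and to 12.0 and 11.8 FPKM in Snf5 CKO libraries. Pre-granulosa markers in males summed to 6.23 and 6.83 FPKM in controls and to 28.6 and 30.6 FPKM in Snf5 CKO libraries, where Amhr2 alone was at 25.0 and 27.2 FPKM. The remaining sums were 14.2 FPKM or less for stromal markers and 59.3 or less for blood and endothelial markers. The part of somatic transcripts in the results below was not tested.

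The sequences before the transcription starts of 6 genes are given because they cover the patterns seen across the 2 sexes: Sycp2, Sycp3 and Tex12 were lower in both sexes, Hormad1 passed the test in females alone, and Syce2 and Hormad2 were lower in females and had higher values in males. They come from RefSeq (GRCm38.p6, the same build as mm10), which had promoters for 9 of 9 genes, in 12 windows of 250 bases before and 50 bases after a start. Each is written 5′ to 3′ on the strand of the gene and ends where an annotated exon begins. Capitals mark matches, on either strand, to the E-box CACGTG, the E2F motif TTCCCGC or its shorter form TCCCGC (which lies within it), the CRE half-site TGACG, the STRA8-MEIOSIN motif CNCCTCAG, the CCAAT box or the GC box GGGCGG.
Sycp3, chr10:88459337-88459568, plus strand: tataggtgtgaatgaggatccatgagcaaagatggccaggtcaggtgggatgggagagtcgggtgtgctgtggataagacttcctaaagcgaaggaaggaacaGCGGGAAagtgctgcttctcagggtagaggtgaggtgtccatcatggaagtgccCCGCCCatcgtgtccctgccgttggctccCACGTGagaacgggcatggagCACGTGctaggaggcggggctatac
Tex12, chr9:50561326-50561518, minus strand: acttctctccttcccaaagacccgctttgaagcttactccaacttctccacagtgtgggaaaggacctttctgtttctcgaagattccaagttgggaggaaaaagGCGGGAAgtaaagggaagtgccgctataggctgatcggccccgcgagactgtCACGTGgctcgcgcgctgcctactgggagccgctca
Sycp2, chr2:178407686-178407908, minus strand: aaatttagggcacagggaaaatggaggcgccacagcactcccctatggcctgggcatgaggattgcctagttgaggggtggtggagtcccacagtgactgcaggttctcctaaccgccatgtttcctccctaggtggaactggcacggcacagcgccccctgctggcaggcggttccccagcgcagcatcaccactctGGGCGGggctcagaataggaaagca
Hormad1, chr3:95559427-95559676, plus strand: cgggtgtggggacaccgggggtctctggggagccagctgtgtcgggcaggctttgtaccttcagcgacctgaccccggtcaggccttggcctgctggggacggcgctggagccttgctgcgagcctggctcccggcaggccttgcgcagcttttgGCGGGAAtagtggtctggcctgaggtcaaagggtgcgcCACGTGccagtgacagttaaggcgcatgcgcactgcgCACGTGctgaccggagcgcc
Syce2, chr8:84871861-84872110, plus strand: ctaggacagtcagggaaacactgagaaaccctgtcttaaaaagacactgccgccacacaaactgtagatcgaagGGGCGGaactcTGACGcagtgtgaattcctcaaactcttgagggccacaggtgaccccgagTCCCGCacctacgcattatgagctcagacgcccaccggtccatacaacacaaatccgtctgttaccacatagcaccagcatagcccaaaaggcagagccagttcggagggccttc
Hormad2, chr11:4441106-4441332, minus strand: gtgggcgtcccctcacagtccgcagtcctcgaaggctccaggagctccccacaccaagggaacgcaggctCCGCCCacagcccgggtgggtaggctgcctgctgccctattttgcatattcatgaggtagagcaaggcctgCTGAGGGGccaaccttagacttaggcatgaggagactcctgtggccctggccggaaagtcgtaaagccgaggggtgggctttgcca
The E-box was found in 6 of the 12 windows, belonging to Sycp1, Sycp3, Syce2, Tex12 and Hormad1, against 7.15% of 32851 promoter windows of all genes, and TTCCCGC in 5 of the 12, belonging to Sycp3, Syce2, Tex12 and Hormad1, against 4.60% of all windows. The 2 windows of Hormad1 start 2 bases apart and so count the same matches again, and the E-box of Syce2 lies before its other start (84872258), in a stretch not printed here. The shorter form TCCCGC was found in 7 of the 12 windows (20.0% of all windows), TGACG in 3 (20.8%), CNCCTCAG in 4 (7.94%), CCAAT in 2 (37.4%) and GGGCGG in 6 (35.7%). The 12 windows had a GC content of 54.7% to 69.3%, against a median of 52.7% over all promoters. The part of GC content in these matches was not tested. Among the genes that fell in both sexes, Sycp3 and Tex12 held the E-box and Sycp2 did not. Of those that did not pass as lower in males, Hormad1, Sycp1 and Syce2 held it while Syce1, Syce3 and Hormad2 did not. The part of these matches in the changes was not tested.

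The genes are dispersed over the genome (GENCODE annotation, GRCm38, whole gene including introns and UTRs). Sycp1 (chr3:102818499-102936100, minus strand), Sycp2 (chr2:178345293-178407685, minus) and Sycp3 (chr10:88459569-88473236, plus) have 33, 44 and 8 exons in their longest transcripts. Syce1 lies at chr7:140777229-140787852 (minus), Syce2 at chr8:84872111-84888221 (plus), Syce3 at chr15:89390174-89410503 (minus) and Tex12 at chr9:50556819-50561325 (minus). Hormad1 lies at chr3:95559677-95587671 (plus) and Hormad2 at chr11:4345814-4441105 (minus). Reads were not strand-specific, which matters for genes that overlap others. Chpt1, on the opposite strand, shares 52.2% of the exonic bases of Sycp3 and was at 9.10 and 10.9 FPKM in controls and 11.2 and 12.0 FPKM in Snf5 CKO libraries of females, and at 20.7 and 27.9 against 18.8 and 20.0 FPKM in males. Gcdh and Il18 overlap Syce2 and Tex12 without sharing exonic bases. Gcdh, at 2.41 to 17.7 FPKM in the 8 libraries, rose in Snf5 CKO germ cells of both sexes, and Il18, at 87.5 and 76.2 FPKM in female controls and 5.35 or less in all other libraries, fell in both.

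In female germ cells all 9 genes were lower in Snf5 CKO than in control libraries, with Snf5 CKO means between 5.87% (Sycp2) and 38.0% (Syce2) of the control mean. For each of the 9 the higher Snf5 CKO library lay below the lower control, which held for 45.1% of the 11529 genes tested, while both lay above for 36.4% of genes and for 0 of these 9. A gene was taken to have fallen or risen where its log2 fold change of FPKM + 1 reached 1 in either direction with an adjusted p under 0.05 (limma, Benjamini-Hochberg over all tested genes). By that rule 9 of 9 fell, against 21.6% of all tested genes, and 0 rose, against 17.3%. The median log2 fold change was -2.61 over the 9 genes and -0.13 over all tested genes. In these bulk libraries a smaller share of cells that express a gene and less RNA per cell cannot be told apart.

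Both axial element genes fell. Sycp3 was at 2667 and 2445 FPKM in female controls, the highest of the 9 genes, and at 180.1 and 252 FPKM in Snf5 CKO libraries. Sycp2 was at 126 and 93.7 FPKM in controls, the lowest of the 9 by mean, and at 5.20 and 7.71 FPKM in Snf5 CKO libraries. The log2 fold changes were -3.58 ± 0.29 (SE, n = 2 libraries per group) for Sycp3, with an adjusted p of 0.000165, and -3.90 ± 0.24 for Sycp2, with an adjusted p of 9.85e-05. Sycp1, which encodes the transverse filament, was at 677 and 554 FPKM in controls and at 98.3 and 100.2 FPKM in Snf5 CKO libraries, a log2 fold change of -2.61 ± 0.21 (adjusted p = 0.000157).

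**Figure D1:**
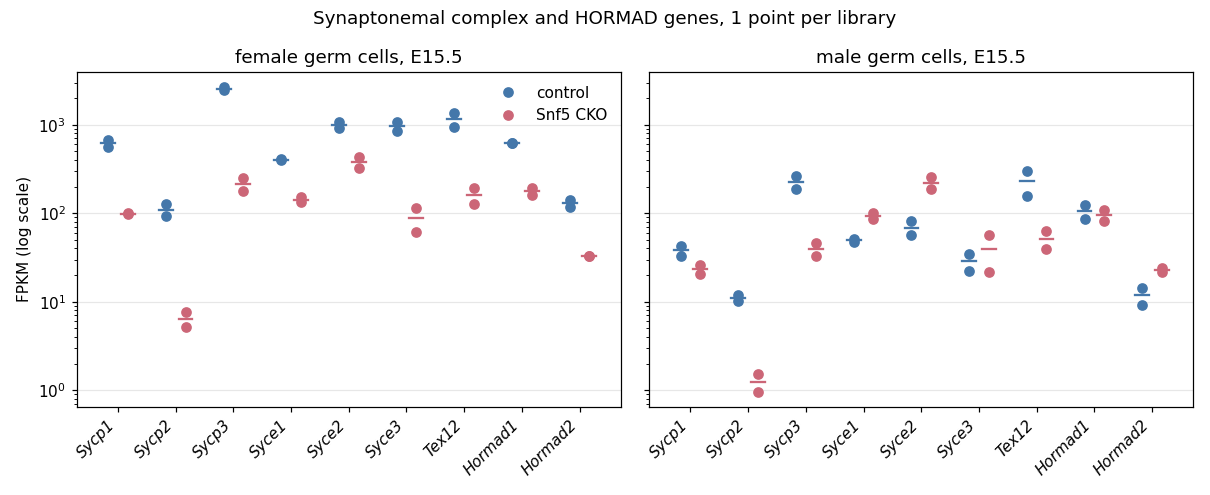
FPKM (log scale) of each gene in female (left) and male (right) E15.5 germ cells, with 1 point per library in blue for control and red for Snf5 CKO and a short line at the mean of 2 libraries. The red points lie under the blue ones for all 9 genes in females, whereas in males they lie under for Sycp1, Sycp2, Sycp3 and Tex12, above for Syce1, Syce2 and Hormad2, and overlap with the blue ones for Syce3, with 1 red point on either side of them, and Hormad1.

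The 4 central element genes split into 2 by the size of the change. Syce3 was at 856 and 1073 FPKM in female controls and at 61.3 and 115 FPKM in Snf5 CKO libraries (log2 fold change -3.50 ± 0.33, adjusted p = 0.000251). Tex12 was at 949 and 1348 FPKM in controls and at 126 and 192 FPKM in Snf5 CKO libraries (-2.86 ± 0.31, adjusted p = 0.000396). These Snf5 CKO means were 9.14% and 13.8% of the control means. Syce1, whose product links the transverse filament to the central element, was at 397 and 410 FPKM in controls and at 134 and 152 FPKM in Snf5 CKO libraries (-1.49 ± 0.20, adjusted p = 0.000911). Syce2, which encodes the binding partner of TEX12, was at 931 and 1077 FPKM in controls and at 326 and 436 FPKM in Snf5 CKO libraries (-1.41 ± 0.28, adjusted p = 0.00441). Syce1 and Syce2 thus kept 35.5% and 38.0% of their control levels, the largest shares among the 9.

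The HORMAD genes lay between these. Hormad1 was at 626 FPKM in both female controls and at 161 and 193 FPKM in Snf5 CKO libraries, and Hormad2 was at 142 and 119 FPKM in controls and at 33.0 and 32.7 FPKM in Snf5 CKO libraries. The Snf5 CKO means were 28.3% and 25.1% of the control means, with log2 fold changes of -1.82 ± 0.22 (adjusted p = 0.000606) and -1.95 ± 0.18 (adjusted p = 0.000219). With 2 libraries per group, an exact permutation test of a single gene cannot give a two-sided p under 0.333, so these calls rest on limma's sharing of the spread across genes. Without that sharing 6 of the 9 genes passed in females, and Syce2, Syce3 and Tex12 did not (adjusted p = 0.072, 0.0612 and 0.0616). The share of all tested genes that passed in this way was not computed.

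In male germ cells the same genes moved in both directions. Of the 9, 3 fell (17.4% of the 12279 tested genes did), 1 rose (14.4% did) and 5 did not pass, with a median log2 fold change of -0.13 against -0.07 over all tested genes. The groups did not overlap for 7 of the 9 genes, with Snf5 CKO below control for 4 (40.0% of all tested) and above it for 3 (34.5% of all tested). Both of these counts, and that of the genes that rose, were close to the shares over all tested genes. The log2 fold changes ranged from -2.49 to 1.68.

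The genes that fell in males were Sycp2, Sycp3 and Tex12. Sycp3 was at 189 and 263 FPKM in male controls and at 33.0 and 46.0 FPKM in Snf5 CKO libraries (log2 fold change -2.49 ± 0.27, adjusted p = 0.00304). In these Snf5 CKO libraries the level of Chpt1, which shares exonic sequence with Sycp3, was 18.8 and 20.0 FPKM, and its part in the remaining Sycp3 value was not tested. Sycp2 was at 10.2 and 11.9 FPKM in controls and at 0.966 and 1.52 FPKM in Snf5 CKO libraries, 11.3% of the control mean (-2.43 ± 0.22, adjusted p = 0.00243). At such low levels the added 1 FPKM shortens the change, and with 0.1 added it was -3.08. Tex12 was at 155 and 302 FPKM in controls and at 39.3 and 62.8 FPKM in Snf5 CKO libraries (-2.10 ± 0.40, adjusted p = 0.0127).

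Syce2 rose in males. It was at 56.1 and 81.1 FPKM in male controls and at 188 and 255 FPKM in Snf5 CKO libraries, so that both Snf5 CKO libraries exceeded both controls (log2 fold change 1.68 ± 0.27, adjusted p = 0.00802). Syce1 and Hormad2 lay in the same direction but short of the size required. Syce1 was at 47.4 and 51.6 FPKM in controls and at 86.7 and 99.6 FPKM in Snf5 CKO libraries (0.90 ± 0.17, adjusted p = 0.0132), with an adjusted p of 0.0362 to 0.0845 when single male libraries were left out and 0.166 with rescaling to a common sum. Hormad2 was at 14.5 and 9.19 FPKM in controls and at 24.0 and 21.5 FPKM in Snf5 CKO libraries (0.92 ± 0.26, adjusted p = 0.0367). With the replicate number added to the fit as a block, the adjusted p was 0.000124 for Syce1 and 0.00176 for Hormad2. Their log2 fold changes were unchanged and stayed short of the size required. Hormad2 passed without male control replicate 1, at 1.22 (adjusted p = 0.0294), but its value was 0.62 without male control replicate 2 (adjusted p = 0.17), 0.84 and 0.995 without male Snf5 CKO replicate 1 or 2 (adjusted p = 0.0987 and 0.0631), and 0.75 with rescaling to a common sum (adjusted p = 0.241). These higher values were found in the male Snf5 CKO libraries whose summed Sertoli markers were at 646 and 874 FPKM, against 163 and 119 FPKM in controls, and the part of that difference in them was not tested.

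The last 3 genes did not pass in males. Sycp1 was at 33.3 and 43.1 FPKM in controls and at 20.5 and 26.1 FPKM in Snf5 CKO libraries (log2 fold change -0.69 ± 0.22, adjusted p = 0.0543). Hormad1 was at 86.8 and 124 FPKM in controls and at 82.2 and 109 FPKM in Snf5 CKO libraries (-0.13 ± 0.26, adjusted p = 0.707), and Syce3 was at 22.3 and 34.9 FPKM in controls and at 21.7 and 56.2 FPKM in Snf5 CKO libraries (0.32 ± 0.49, adjusted p = 0.625). For Hormad1 and Syce3 the groups overlapped, and the sign of the difference depended on single libraries: it was -0.35 for Syce3 without male Snf5 CKO replicate 2, and 0.12 and 0.067 for Hormad1 without male control replicate 2 and male Snf5 CKO replicate 1. Without the sharing of the spread across genes, 0 of the 9 genes passed in males in either direction, and the share of all tested genes that passed was not computed. With the sharing, 7 of the 9 had an unadjusted p under 0.05, against 54.8% of all tested genes.

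**Figure D2:**
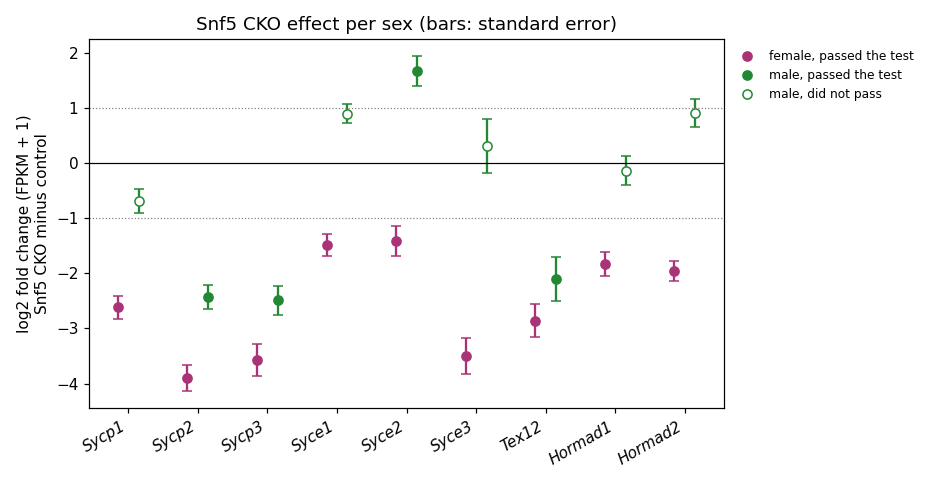
Log2 fold change of FPKM + 1 (Snf5 CKO minus control) with its standard error for each gene, in purple for females and green for males, filled where the gene passed the test and open where it did not, with dotted lines at the threshold of 1 in either direction. The female points lie between -3.90 and -1.41 and the male points between -2.49 and 1.68.

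The difference between the sexes was then tested in a fit over all 8 libraries. The Snf5 CKO effect differed at an adjusted p under 0.05 for 8 of the 9 genes, against 45.3% of the 10472 genes tested in both tables, and in each of the 8 it was more negative in females. The largest difference was that of Syce3, at -3.81 ± 0.67 on the log2 scale (adjusted p = 0.00359), followed by Syce2 at -3.09 ± 0.37 (adjusted p = 0.000938), Hormad2 at -2.87 ± 0.30 (adjusted p = 0.000576) and Syce1 at -2.39 ± 0.22 (adjusted p = 0.000376). The genes whose effect differed least were those that fell in both sexes. The difference was -1.47 ± 0.34 for Sycp2 (adjusted p = 0.0114) and -1.09 ± 0.37 for Sycp3 (adjusted p = 0.0474), and that of Tex12, at -0.76 ± 0.56, did not pass (adjusted p = 0.305). Sycp2 lost its call with 0.1 in place of 1 added to the FPKM (adjusted p = 0.084), with rescaling to a common sum (adjusted p = 0.0662) and without moderation (adjusted p = 0.0518). When the replicate number was added to the fit as a block, Tex12 passed as well (adjusted p = 0.000938), while Sycp3 lost its call when female control replicate 1 or 2, female Snf5 CKO replicate 1, male control replicate 1 or male Snf5 CKO replicate 2 was left out (adjusted p = 0.121, 0.0863, 0.152, 0.134 and 0.139). The 2 remaining differences were -1.92 ± 0.28 for Sycp1 (adjusted p = 0.0017) and -1.69 ± 0.32 for Hormad1 (adjusted p = 0.00522).

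The levels behind these differences were set side by side, without a test because the tables of the sexes were normalized separately. Control means in females were between 5.03-fold (Tex12) and 33.7-fold (Syce3) those in males. In Snf5 CKO germ cells the same ratio was between 1.44-fold (Hormad2) and 5.47-fold (Sycp3). For Syce1, Syce2, Hormad1 and Hormad2 the female Snf5 CKO mean was 1.44-fold to 1.85-fold the male Snf5 CKO mean, where the controls were 5.95-fold to 14.6-fold apart. Summed over the 9 genes, the FPKM in females was 7372 and 7746 in controls against 1125 and 1480 in Snf5 CKO libraries, and in males 615 and 920 against 496 and 677, so the male groups overlapped in the sum while their members shifted against each other.

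The order of the genes by level, compared per length as FPKM, also changed. In female controls Sycp3 stood above Tex12, Syce2 and Syce3, which overlapped each other in turn, followed by Hormad1 and Sycp1, which overlapped, then Syce1, and last Hormad2 and Sycp2, which overlapped. Sycp3 ranked 7 and 22 among all named genes in these 2 libraries. In male controls Tex12 and Sycp3 shared the top with overlapping values, followed by Hormad1, Syce2 and Syce1 in separate ranges. In the Snf5 CKO libraries of both sexes Syce2 was the most abundant of the 9 and Sycp2 the least. Syce2 made up 12.6% and 13.9% of the summed FPKM of the 9 genes in female controls and 29.0% and 29.5% in female Snf5 CKO libraries, and in males it went from 9.14% and 8.81% to 37.9% and 37.6%. The share of Sycp3 went from 36.2% and 31.6% to 16.0% and 17.0% in females and from 30.8% and 28.5% to 6.64% and 6.79% in males.

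Ratios between genes in the same library do not depend on how the library was scaled, and are given as log2 ratios of FPKM without a test. The ratio of Tex12 to Syce2, whose products form a complex, was 0.03 and 0.32 in female controls and -1.37 and -1.18 in female Snf5 CKO libraries. In males it was 1.46 and 1.90 in controls and -2.26 and -2.02 in Snf5 CKO libraries. The ratio was thus lower in Snf5 CKO libraries of both sexes, where both RNAs fell in females while in males Tex12 fell and Syce2 rose. Six6os1 (listed as 4930447C04Rik), which encodes the central element partner of SYCE1, showed a like shift against Syce1, from 0.03 and 0.01 to -1.55 and -1.10 in females and from 0.89 and 1.44 to -1.87 and -1.61 in males. The axial pair stayed closer together, with Sycp2 over Sycp3 at -4.40 and -4.71 in controls against -5.12 and -5.03 in Snf5 CKO libraries of females and at -4.21 and -4.47 against -5.09 and -4.92 in males, lower in Snf5 CKO in both sexes. Sycp1 over Sycp3 was higher in Snf5 CKO libraries of both sexes, by 0.96 in females and 1.81 in males. Syce3 over Sycp1 moved in opposite directions, by -0.89 in females and 1.04 in males, and Hormad1 over Hormad2 overlapped between groups in females and did not overlap in males, where the means differed by -1.11.

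**Figure D3:**
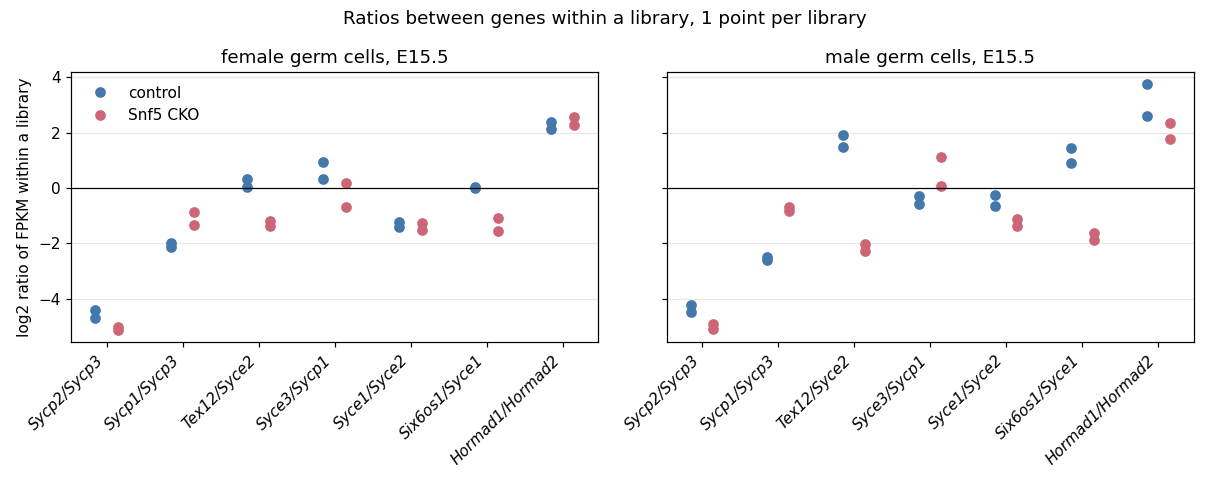
Log2 ratio of the FPKM of 2 genes within each library, female on the left and male on the right, with 1 point per library in blue for control and red for Snf5 CKO. Tex12/Syce2 and Six6os1/Syce1 lie lower in Snf5 CKO libraries of both sexes, Sycp1/Sycp3 lies higher in both, and Syce3/Sycp1 moves down in females and up in males.

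Other genes of meiotic prophase were followed in 6 lists of 35 genes in all, also chosen with earlier results of these data known. In females 29 were tested, of which 23 fell (21.6% of all tested genes did), 1 rose (17.3% did) and 5 did not pass. In males 27 were tested, of which 7 fell (17.4% of all tested genes did), 4 rose, which is close to the 14.4% of all tested genes, and 16 did not pass. The genes that fell in each sex include Syce1l, whose locus is shared with Mon1b. In males 1 gene fell and 1 rose among the 4 of the cohesin list and among the 6 tested of the break formation list. Counts in lists this small cannot be set apart from the shares over all tested genes. The counts of the single lists below are to be read beside those shares.

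Of the other synaptonemal complex genes, Six6os1 was at 405 and 413 FPKM in controls and 46.0 and 71.0 FPKM in Snf5 CKO libraries of females, and at 87.9 and 140 against 23.7 and 32.6 FPKM in males. It fell in both sexes (log2 fold change -2.82 and -1.96, adjusted p = 0.000195 and 0.00669). Syce1l, a paralog of Syce1, shares a locus with Mon1b in the tables and cannot be separated from it. That locus also fell in both sexes (-1.36 and -2.46), so 2 of 2 tested entries of this list fell in each, counting the shared locus. Over all tested genes 21.6% fell in females and 17.4% in males. The list had a median log2 fold change of -2.09 in females and -2.21 in males, with that locus included.

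Among the 4 meiotic cohesin genes, which hold sister chromatids in the axis, 3 fell and 1 rose in females (median -2.21). Rad21l fell from 60.7 and 75.1 FPKM to 1.997 and 4.48 FPKM (-4.08, adjusted p = 0.000131), while Smc1b (-2.47) and Stag3 (-1.95) fell less. Rec8, a meiotic kleisin, rose from 27.4 and 47.1 FPKM to 110 and 97.9 FPKM (adjusted p = 0.00284). In males 1 fell and 1 rose, against 17.4% and 14.4% of all tested genes (median -0.22). Rad21l went from 4.30 and 6.88 FPKM to 0.252 and 0.548 FPKM (-2.21, adjusted p = 0.00378) and Rec8 from 7.21 and 8.59 FPKM to 23.4 and 30.8 FPKM (1.65, adjusted p = 0.00468). Rec8 thus rose in both sexes, unlike Sycp2 and Sycp3 of the same axis, and Stag3 (-0.66) and Smc1b (0.22) did not pass in males.

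Of 7 tested genes for HORMAD partners and break formation, 5 fell and 0 rose in females (median -3.05), among them Mei1 (-3.99), Spo11 (-3.63), which encodes the enzyme that makes the breaks, and Gm960 (-3.11). Rec114 (-0.70, adjusted p = 0.0529) and Trip13 (0.72, adjusted p = 0.014), whose product removes HORMADs from synapsed axes, did not pass. In males 1 of 6 fell and 1 rose, against 17.4% and 14.4% of all tested genes (median 0.21). Spo11 was at 11.8 FPKM in both male controls and at 3.70 and 4.19 FPKM in Snf5 CKO libraries (-1.38, adjusted p = 0.00479), while Ccdc36 (Iho1), which encodes a partner of HORMAD1, rose from 1.31 and 1.08 FPKM to 3.78 and 3.64 FPKM (1.10, adjusted p = 0.00759). Rec114 (-0.61, in males listed as 2410076I21Rik) and Trip13 (0.48) did not pass in males.

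The 6 genes for telomere attachment fell in females (6 of 6, median -2.93), led by Terb1 (-3.79), Spdya (-3.60) and Terb2 (-2.93). In males 0 of 5 fell and 2 rose, against 17.4% and 14.4% of all tested genes (median 0.43). Those that rose were at low levels: Majin from 0.417 and 0.602 FPKM to 1.89 and 2.61 FPKM, and Ccdc155 (Kash5) from 1.66 and 1.23 FPKM to 3.54 and 4.63 FPKM. Sun1 (0.28) and Spdya (0.43) did not pass in males.

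All 5 tested ZMM genes, which stabilize synapsis and crossovers, fell in females (median -3.19), led by Msh5 (-3.72), Hfm1 (-3.38) and Tex11 (-3.19). In males 2 of 5 fell, against 17.4% of all tested genes (median -0.75). Tex11 went from 49.4 and 45.8 FPKM to 8.69 and 8.37 FPKM (-2.35, adjusted p = 0.00213) and Ccnb1ip1 from 17.2 and 18.5 FPKM to 5.69 and 7.98 FPKM (-1.28, adjusted p = 0.00935). Hfm1 (-0.75) and Msh4 (-0.42, in males listed together with Asb17os) did not pass in males.

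The last list held regulators of meiotic entry. Stra8, the retinoic acid target that starts the meiotic programme, was at 225 and 393 FPKM in female controls and at 269 and 330 FPKM in female Snf5 CKO libraries, with overlapping groups (0.00 ± 0.31, adjusted p = 0.995). Dazl, which encodes an RNA-binding protein needed for germ cell differentiation, did not pass in females (-0.39) or males (0.45). Meioc (listed as Gm1564) and Ythdc2, whose products act together on meiotic RNAs, fell in females (-2.44 and -1.45), so 2 of 5 fell, with a list median of -0.39. In males Zglp1, the transcriptional regulator downstream of BMP, fell from 31.3 and 39.4 FPKM to 6.96 and 13.0 FPKM (-1.78, adjusted p = 0.0106). In females Zglp1 did not pass, at 16.3 and 33.3 FPKM in controls and 42.8 and 40.8 FPKM in Snf5 CKO libraries (0.81, adjusted p = 0.058). The female effect minus the male effect was 2.59 (adjusted p = 0.00608). Stra8 (0.78) did not pass in males, and the list median in males was 0.12. Meiosin was not found under that name and was not analysed here.

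**Figure D4:**
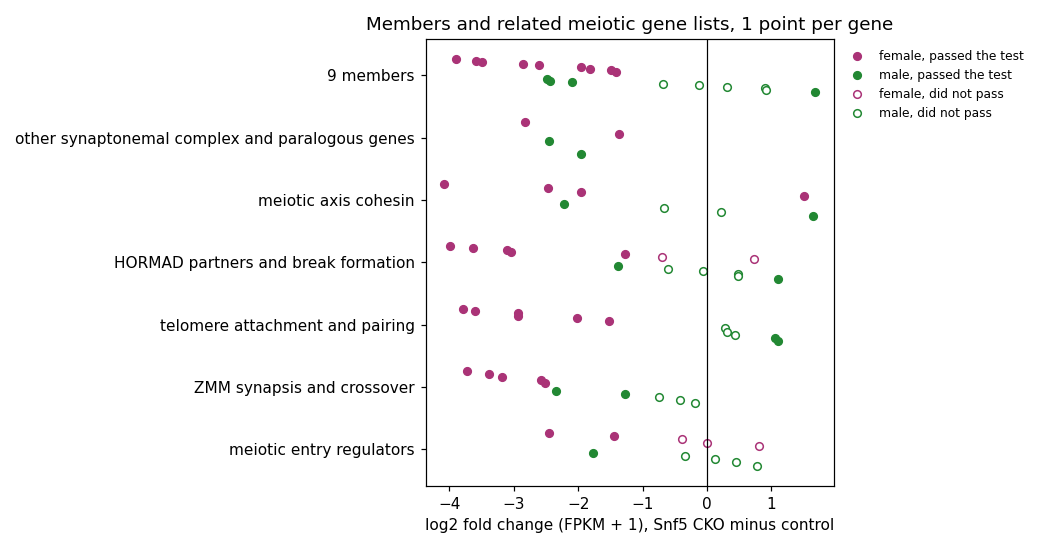
Log2 fold change of FPKM + 1 (Snf5 CKO minus control, horizontal axis) of the 9 genes and of the tested genes of 6 lists, 1 point per gene, in purple for females and green for males, filled where the gene passed the test. In females 23 of 29 list genes fell (21.6% of all tested genes), and in males 7 of 27 fell (17.4%) and 4 rose (14.4%).

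The genes most like the 9 in their pattern over the 8 libraries were sought by the root mean square distance, on the log2 scale, between a gene and the mean of the 9 after centring on the mean of each table. Among the genes tested in both tables the closest 5 were Hspb11 (0.11), Gm10190 (0.14), BC049762 (0.14), Chchd6 (0.15) and Dmc1 (0.15). Dmc1, which encodes the meiotic recombinase, had a log2 fold change of -2.53 in females and -0.18 in males, and Hspb11 of -2.40 and -0.27. Of the 9 genes themselves Sycp1 lay closest to their mean (0.14), and Syce2 (0.86), Sycp2 (0.85) and Sycp3 (0.81) lay farthest from it. The mean pattern therefore described Sycp1 and Hormad1 (0.29) better than the genes at the ends of the range.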

How the data were processed

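The authors prepared cDNA with a SMART-Seq kit and libraries that do not keep the strand, mapped paired-end reads to mm10 with TopHat and quantified them with Cufflinks, and deposited 1 table of FPKM values per sex; the submitters' processing notes name TopHat2 2.2.1 and Cuffdiff 2.1.1. The tables also hold 16 columns of confidence bounds, which were left out. No fragment counts are given, so no depth, counting interval or detection limit is given, and the 2 libraries per group limit the precision. Positions of loci in the tables start from 0, and 1 was added.

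A gene at several loci was represented by the locus with the highest mean. Named genes whose 4 libraries averaged 1 FPKM or more were fitted as log2(FPKM + 1) with limma 3.58.1 in R 4.3.3 (lmFit, eBayes with trend), each sex alone, and over all 8 libraries for the difference between the sexes. A call needed a log2 fold change of 1 or more in size together with an adjusted p (Benjamini-Hochberg) under 0.05; the difference between the sexes needed the adjusted p alone. Fold changes are therefore on the log2(FPKM + 1) scale and understate changes of low genes. The fit was tested on simulated data. Raw-file names in the labels set replicate 1 apart from replicate 2 in every group, and the male columns call the numbers experiments. The replicate number may therefore mark a shared batch. It was left out of the main fits and added as a block in an alternative fit. The deviations of the 2 numbers correlated across genes between control and Snf5 CKO (r = 0.50 in females, 0.61 in males).

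The genes, the lists of meiotic genes and the lists of cell type markers were chosen with earlier results of these data known. From each list the 3 called genes with the largest absolute log2 fold change and up to 2 genes that were not called, those with the highest mean, are named. Rec8 and Zglp1 in females are named outside this rule. Of 35 list genes 29 were found in each table, by symbol, older symbol or RefSeq synonym. Plots were made in Python 3.11.15 with matplotlib 3.10.9. Results were recomputed with 0.1 as the pseudocount, without the filter, with a filter at 5 FPKM, with 2 rescalings of libraries, without trend, without moderation, with the replicate block, with status OK loci alone, with sums of loci, without merged loci, with an unadjusted p, and with each library left out.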

Additional observations from a re-analysis of the deposited data

Results flagged for a closer look

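The Snf5 CKO effect differed between female and male germ cells for 8 of the 9 genes, by a test of the difference itself in a fit over all 8 libraries. Over the 10472 genes tested in both tables it differed for 45.3%. The female effect minus the male effect, on the log2 scale, was -1.92 for Sycp1, -1.47 for Sycp2, -1.09 for Sycp3, -2.39 for Syce1, -3.09 for Syce2, -3.81 for Syce3, -1.69 for Hormad1 and -2.87 for Hormad2. Those of Sycp3 (adjusted p = 0.0474) and Sycp2 (adjusted p = 0.0114) lost their calls under other settings of the processing. Groups of 2 libraries are too small to look for a single library that stands apart.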

How the results depend on the processing

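The count of genes that fell in females stayed at 9 under the alternatives run, except 6 without moderation of the variances. In males 3 fell and 1 rose under each alternative, except that 0 fell and 0 rose without moderation and that leaving out single libraries gave 1 to 2 that rose. The count that rose was added after the data had been seen. The share of all tested genes that passed without moderation was not computed. With single male libraries left out, the log2 fold change in males ranged from -0.38 to 0.12 for Hormad1 (0.067 without Snf5 CKO replicate 1) and from -0.35 to 0.98 for Syce3. Of the 9 genes, the number whose effect differed between the sexes was 6 with a pseudocount of 0.1, with rescaling to a common sum and without moderation, 7 without a filter and with median-of-ratios rescaling, 7 to 8 with single libraries left out, and 9 with the replicate block. The difference of Sycp2 was lost with a pseudocount of 0.1 (adjusted p = 0.084), with a common sum (0.0662) and without moderation (0.0518). That of Sycp3 had an adjusted p of 0.0535 with a pseudocount of 0.1, 0.0556 without a filter, 0.0633 and 0.0667 under the rescalings and 0.118 without moderation. With the replicate block the difference of Tex12 passed (adjusted p = 0.000938), and no other call among the 9 genes changed. Rescaling to a common sum moved the median over all tested genes of the log2 fold change in males from -0.07 to -0.24, and median-of-ratios rescaling moved that in females from -0.13 to 0.01. No counts were available, so the precision of low values such as Sycp2 in male Snf5 CKO libraries could not be given.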
